A study of Drosophila melanogaster with 6 samples.

Results

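The DamID profiles were examined at 9 genes for cell surface proteins that guide the wiring of the fly visual system: *Dscam1*, *Dscam2*, *Dscam3*, *Dscam4*, *CadN*, *CadN2*, *caps*, *trn* and *stan*. The genes were chosen by name from 18164 annotated genes, and a peak was assigned to a gene when it lay within 1000 bp of it. The experiment mapped where the transcription factors Eyeless (Ey) and Suppressor of Hairless (Su(H)) contact DNA in medulla neuroblasts, the stem cells of the larval optic lobe. In DamID, a factor is fused to the bacterial Dam methylase, which marks nearby GATC sequences, and Dam alone gives the background of accessible DNA. There were 3 groups with 2 samples each, Ey-Dam, Su(H)-Dam and Dam alone. All carried UAS-Dcr2 and tubG80ts (a temperature-sensitive Gal80, over the CyO balancer), with SoxN-Gal4 driving UAS-Ey-Dam, UAS-Su(H)-Dam or UAS-Dam. Crosses were kept at 25 °C, and the eggs of an 8 hour window were held for 3 days at 18 °C. Expression was then induced for 72 hours at 29 °C, after which the optic lobes of about 100 brains per sample were taken from climbing larvae of the third instar. The cells were not sorted, so the profile covers whichever cells the SoxN-Gal4 driver reached, and the labelled cell type cannot be checked from lists of peaks, which hold no expression values. A fusion protein induced through Gal4 need not be at the level of the endogenous factor, and its marks accumulate over the whole induction.

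Ey is a Pax6-type factor and a member of the temporal series that medulla neuroblasts pass through as they age, and Su(H) is the DNA-binding effector of Notch signalling. The proteins studied here act later, in the neurons. Dscam proteins are immunoglobulin receptors by which neurites recognise copies of themselves, N-cadherin (CadN) is a calcium-dependent homophilic adhesion molecule, Capricious (Caps) and Tartan (Trn) are related leucine-rich repeat proteins used in layer targeting, and Flamingo, the product of *stan*, is a multi-pass cadherin of planar polarity and axon targeting.

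Reproducible peaks of both factors lay at *Dscam1*, *Dscam2*, *CadN* and *caps*, of Su(H) alone at *trn*, and of Ey alone at *stan*. *Dscam3*, *Dscam4* and *CadN2* had none of either factor. A reproducible peak is a peak in the list that passed the irreproducible discovery rate (IDR) threshold of 0.05 over the replicates, and 984 such peaks were deposited for Ey and 972 for Su(H). Thus 5 of the 9 genes had a reproducible Ey peak, beside 5.54% of all annotated genes, and 5 had a reproducible Su(H) peak, beside 5.46%. Peaks of each factor were found at 4 genes, beside 3.33% of all genes. The share of genes with a peak rose with gene length, and of these genes only *trn* is short. Among the 663 protein-coding genes of at least 30 kb, 23.1% had a reproducible Ey peak, 21.1% a Su(H) peak and 17.0% a peak of each, and of the 8 adhesion genes in that class 5 had an Ey peak, 4 a Su(H) peak and 4 both. With 8 genes, chosen with earlier results known, these counts are a description and no test was made of them.

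**Figure D1:**
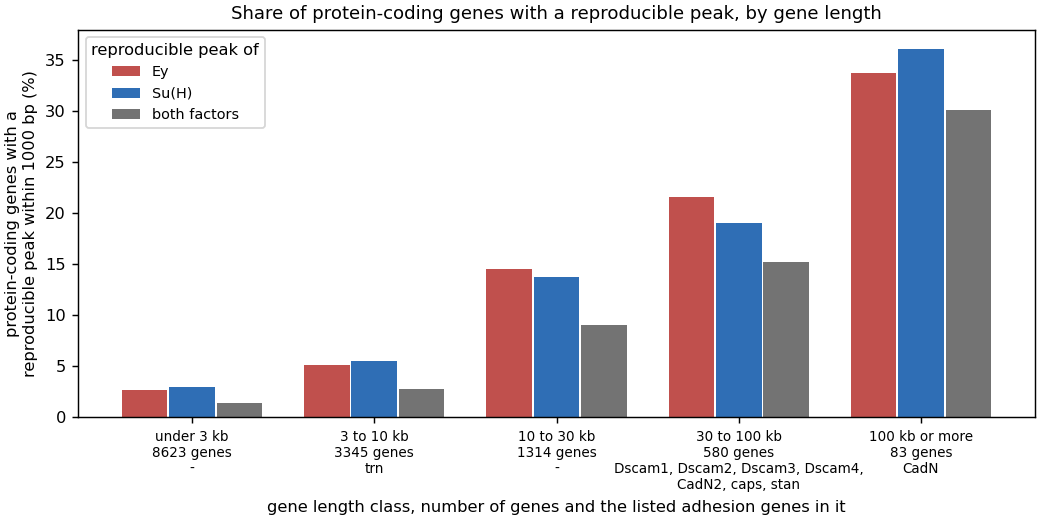
Share of protein-coding genes (y axis, percent) with a reproducible peak of Ey, of Su(H) or of both within 1000 bp, by class of gene length (x axis), with the number of genes and the adhesion genes of each class below. The Ey share rises from 2.64% of genes under 3 kb to 33.7% of genes of 100 kb or more, the class of *CadN*.

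The 4 lists of the separate replicates, called at a false discovery rate (FDR) of 0.01, gave a like picture. Ey peaks were present in both replicates at 4 of the 9 genes (*Dscam1*, *Dscam2*, *CadN* and *caps*), beside 6.30% of all genes and 25.6% of the long coding genes. Su(H) peaks were present in both replicates at 5 genes, the same 4 and *trn*, beside 6.80% of all genes and 25.8% of the long ones. Only *Dscam3* and *CadN2* had no peak in any of the 6 lists, a state shared by 87.1% of all genes and 60.5% of the long ones. Overlapping peaks of the 9 genes merged into 15 regions, of which 7 were in all 4 replicate lists, 3 in 3 lists, 1 in 2 lists and 4 in 1 list. At *trn* region 3 this count includes a peak of Ey replicate 1 that overlaps the region but lies beyond 1000 bp from the gene. Regions are numbered here from the 5′ end of each gene. Of the 8 reproducible Ey peaks, 7 overlapped a peak in both replicate lists (87.5%, against 83.8% of all reproducible Ey peaks), and the exception was at *stan*. All 9 reproducible Su(H) peaks did so, against 81% of all reproducible Su(H) peaks.

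**Figure D2:**
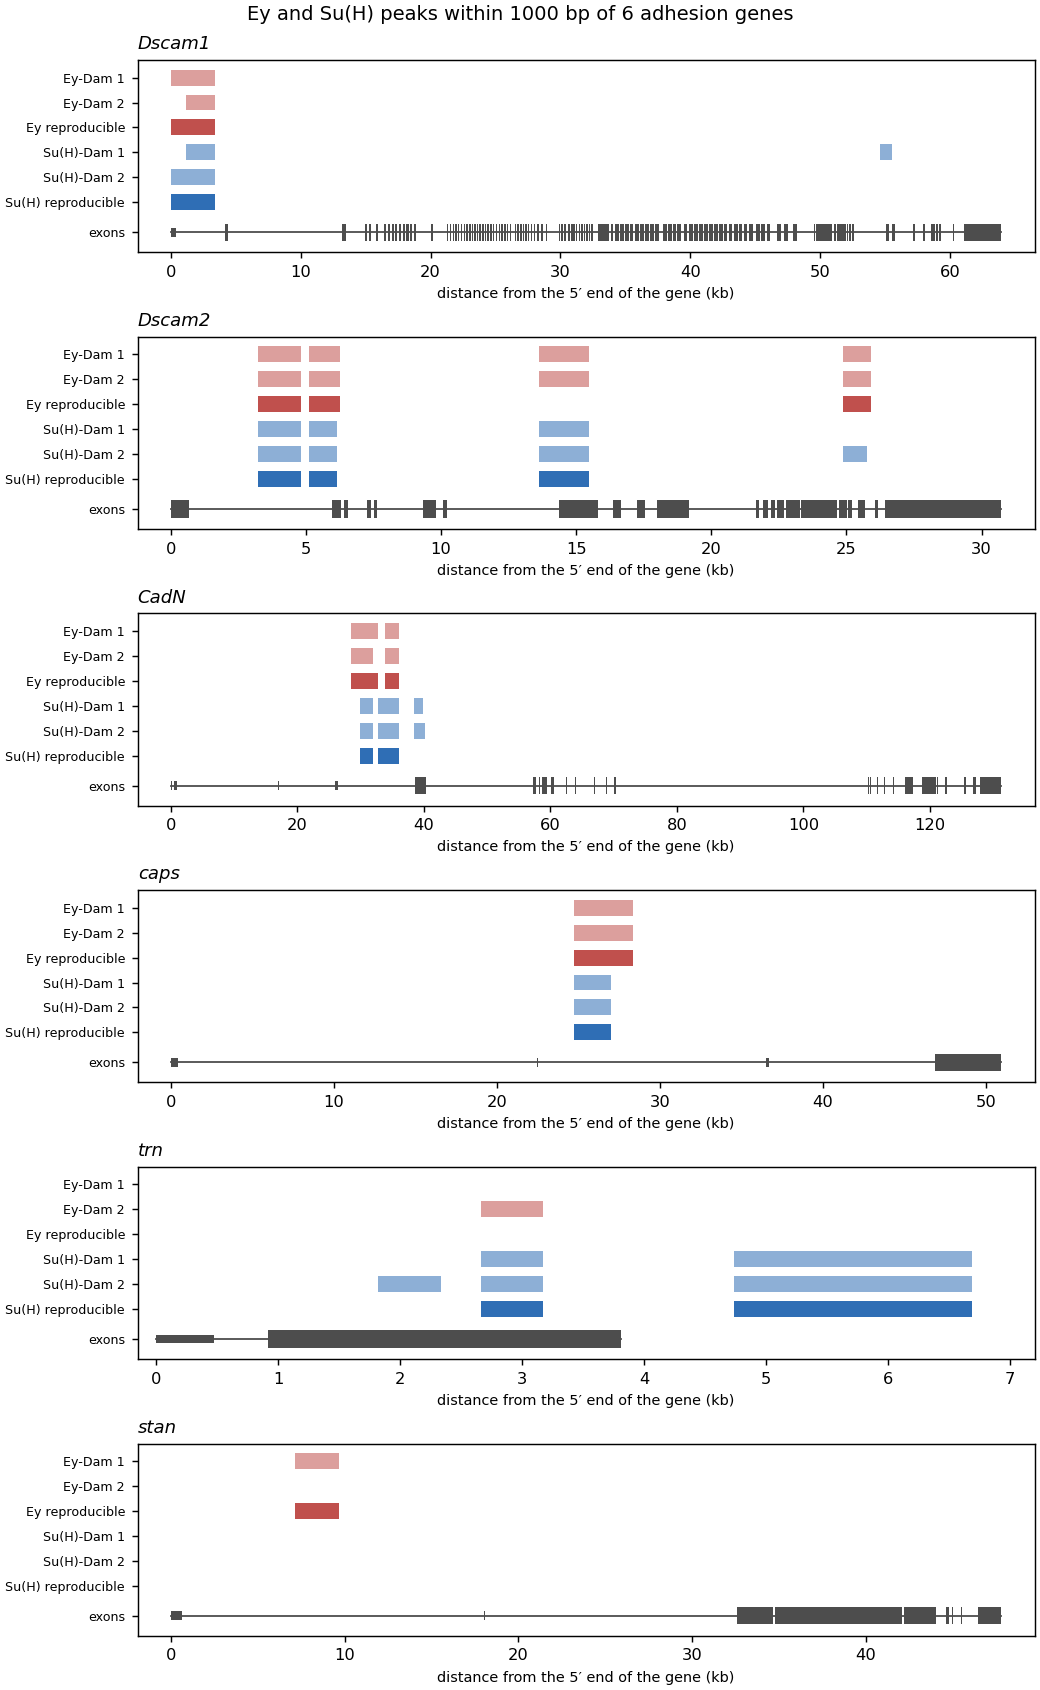
Position of every peak within 1000 bp of the 6 genes with a reproducible peak, as distance from the 5′ end of the gene in kb (x axis), for the 2 Ey-Dam and 2 Su(H)-Dam replicate lists and the reproducible lists (rows, Ey in red, Su(H) in blue). Exons are drawn below in grey, taller where they hold coding bases. The peaks of *CadN*, *caps* and *stan* lie in long introns before the coding sequence or, for 1 Su(H) region of *CadN*, on an early exon. Other peaks of *Dscam2* and *trn* reach into coding exons, but *Dscam2* region 1 is intronic and *trn* region 3 lies downstream of the gene.

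Peak heights are given as the score of the peak caller, which rises with the log2 ratio of the fusion over Dam alone. Scores ran higher for Ey than for Su(H) in general (list medians 5.14 and 4.42 in the Ey replicates, 3.22 and 2.96 in the Su(H) replicates), so each score is followed by the percentage of peaks in its own list that scored lower, called its percentile. Group sizes of 2 and 2 allow no exact two-sided permutation p below 0.333, and differences between the factors are therefore stated without a test. Which Dam sample served each fusion is not given in the sources used here, and the factors may share controls.

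*Dscam1* encodes the receptor whose alternatively spliced ectodomains give each neuron a surface identity. The gene spans 64 kb on the minus strand of 2R (7317924 to 7381899, dm6) and is annotated with 118 distinct exons, most of them in the arrays of alternative exons. Its reproducible peak (region 1, 7378517 to 7381872) lay at the 5′ end and not on those arrays. It held a transcript start (7381869, next to the peak edge) but not the other annotated start (7381899). It also held 402 bp of 5′ UTR, the rest being intron, all of it before the first coding base. Its coordinates were identical for Ey and Su(H). The scores were 6.41 (percentile 92.9) and 5.31 (86.1) in the Ey replicates and 3.87 (85.2) and 3.3 (68.7) in the Su(H) replicates. The Ey percentiles were the higher pair and did not overlap those of Su(H), although the lower Ey value and the higher Su(H) value were close. The left edge was shared by all replicates, but Ey replicate 2 and Su(H) replicate 1 ended the peak 1.13 kb short of the transcript start, which puts the start itself inside the peak in only 1 replicate of each factor. The gene *cos* also lies within 1000 bp of this peak, so the assignment to *Dscam1* alone rests on distance. A second region, 933 bp around the 3′ part of the gene (7326339 to 7327271), held 195 bp of coding sequence and was called in Su(H) replicate 1 only, with a score of 3.16 (percentile 46.2). An antisense RNA gene, *asRNA:CR45129*, is annotated within 1000 bp of this second region.

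The paralogues *Dscam3* and *Dscam4* stood apart from *Dscam1* in having no reproducible peak, although they span 31.7 kb and 43.8 kb and contain 52 and 78 GATC sites at which methylation could have been read. At *Dscam4* (3L 8238647 to 8282398), the sole peak was an intronic peak of 1800 bp in Ey replicate 2, with a score of 3.3, above only 7.55% of that list. The nearest reproducible peaks were 43821 bp away for Ey and 43940 bp for Su(H). At *Dscam3* (3R 17473935 to 17505667), the gene itself was empty, but a peak called in all 4 replicates stood 3447 bp beyond its 3′ end, outside the limit of 1000 bp. Its scores were 5.18 (percentile 52.2) and 5.03 (75.5) in the Ey replicates and 2.8 (27.8) and 3.01 (53.1) in the Su(H) replicates, and it was reproducible for Ey only. The nearest reproducible Su(H) peak to *Dscam3* was 44465 bp away. The 3 genes without a reproducible peak of either factor had few GATC sites for their length, 1.42 to 1.78 per kb against 2.79 over the 6 chromosome arms, yet *CadN* (1.75) and *caps* (1.94), which carried peaks, were close to them. The part of site density in these calls was not tested.

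*Dscam2*, which keeps neighbouring neurites of the same class apart in the medulla, had the largest share of its length in reproducible peaks of each factor among the 9 genes. In 30.7 kb (3L 7159199 to 7189931, minus strand) it held 3 peaks in each of the reproducible lists, and those of Ey and Su(H) covered 12.3% and 14.6% of the gene. The Su(H) share at the much shorter *trn* was close, at 13.3%. Among the protein-coding genes of at least 30 kb, 4.37% had 3 or more reproducible Ey peaks and 4.52% had 3 or more of Su(H), against 0.301% and 0.33% of protein-coding genes of any length. Region 1 (7185126 to 7186720) was intronic, 3.21 kb from the transcript start, with identical edges for both factors. It scored 5.34 (percentile 59.3) and 4.63 (59.3) in the Ey replicates and 3.95 (89) and 3.25 (65.7) in the Su(H) replicates, so that here Su(H) stood higher in its lists than Ey in its own. Region 2 (7183689 to 7184819), a little further into the gene and reaching a coding exon, showed the reverse order. It scored 6.63 (percentile 96) and 6.18 (98.7) for Ey, the highest peak of the gene, and 3.65 (74.8) and 3.50 (77.6) for Su(H). In both Su(H) replicates this peak began 90 bp later than in both Ey replicates, at the next GATC site along the chromosome. The stretch between these edges is shown because it sets the size of the difference that DamID can resolve here. It is coding sequence, written on the plus strand of dm6 (chr3L:7183677-7183790), with the GATC where the Ey peak starts and the GATC where the Su(H) peak starts in capitals.
Dscam2 region 2, left edges: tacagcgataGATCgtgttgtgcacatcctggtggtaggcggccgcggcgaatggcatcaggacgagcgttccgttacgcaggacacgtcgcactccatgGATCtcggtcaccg

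The other regions of *Dscam2* lay deeper in the gene. Region 3 (7174457 to 7176321), 13.6 kb from the start, was called with the same edges in all 4 replicates but with low scores, 4.57 (percentile 25.9) and 4.01 (33.3) in the Ey lists and 2.83 (28.9) and 2.50 (25.1) in the Su(H) lists. The percentiles of the factors overlapped, yet the region passed the IDR threshold for Su(H) only. It covered 226 bp of coding sequence and 891 bp annotated as 3′ UTR of shorter transcripts. Region 4 (7164028 to 7165070), 24.9 kb from the start, held 559 bp of coding sequence. It touched 5 annotated exons, some of which are overlapping variants of the same exon. Its scores were 5.42 (percentile 62.8) and 5.35 (87.3) in the Ey replicates, where it was reproducible, and it was in Su(H) replicate 2 (3.22, percentile 64) but not in Su(H) replicate 1. Of the 4 regions of *Dscam2*, therefore, those nearest to the 5′ end were reproducible for both factors and the deeper ones for a different factor each, while the replicate lists held both factors at all of them.

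**Figure D3:**
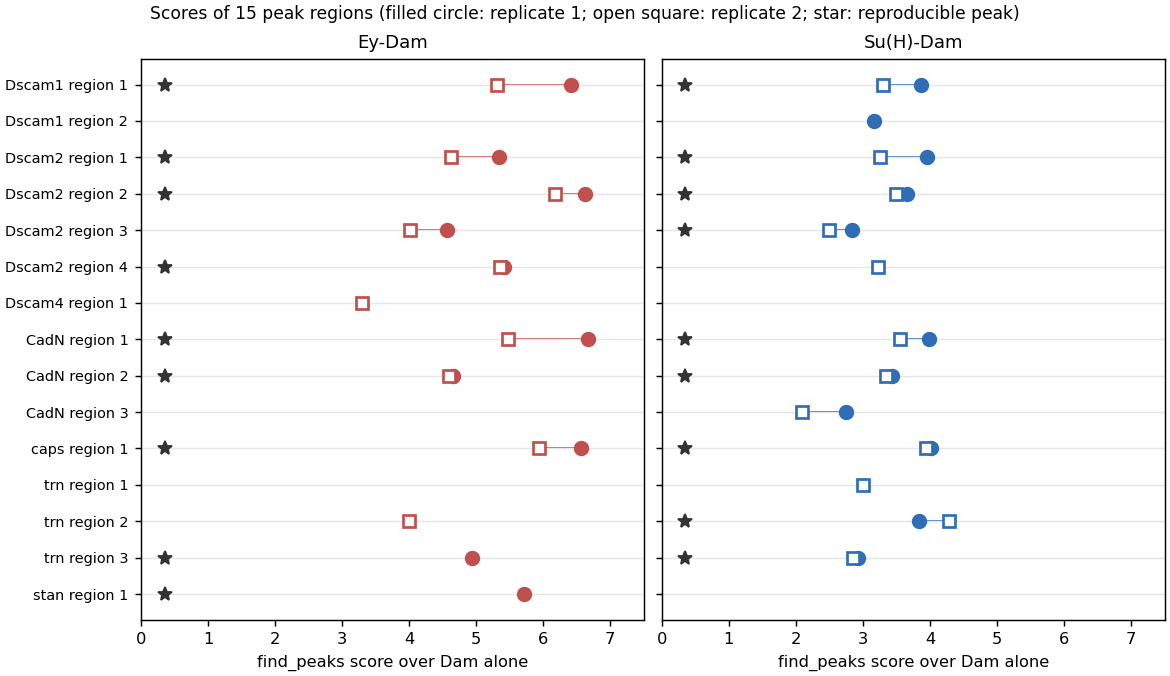
Scores (x axis, peak caller score over Dam alone) of the 15 regions (y axis, numbered from the 5′ end of each gene) in the Ey-Dam samples (left) and the Su(H)-Dam samples (right). A filled circle is replicate 1, an open square replicate 2, a line joins them and a star marks a reproducible peak. *Dscam2* region 2, *CadN* region 1 and *caps* region 1 reach 6.63, 6.66 and 6.57 in Ey replicate 1. The Ey peak drawn at *trn* region 3 overlaps that region but lies 1372 bp from the gene.

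*CadN* encodes N-cadherin, which photoreceptor axons and their medulla targets need to join the right layers. It is the longest of the 9 genes (131 kb, 2L 17647053 to 17778340, minus strand), and all of its reproducible peaks fell within a stretch between 28.5 and 36.1 kb from its 5′ end, in an intron before the first coding base. They stood downstream of a second annotated transcript start (17752346), the nearest of them at 2.49 kb. Region 1 (17745648 to 17749853) scored 6.66 (percentile 96.3) and 5.48 (90.3) in the Ey replicates, and 3.98 (90.1) and 3.55 (80.2) in the Su(H) replicates. The factors differed in breadth there: the reproducible Ey peak covered 4206 bp, and the Su(H) peak covered 1933 bp inside it. In Ey replicate 2 the peak was narrower, 3408 bp, and shared its left edge with the peaks of both Su(H) replicates. In region 2 (17742275 to 17745647) the breadth was the other way round, with 3373 bp for Su(H) and 2242 bp for Ey. Its scores were 4.66 (percentile 29.2) and 4.60 (57.7) in the Ey lists and 3.43 (63.1) and 3.34 (70.5) in the Su(H) lists, so Su(H) held the higher ranks. A further region, region 3 (17738099 to 17739877), on the first large coding exon, was in both Su(H) replicates at 2.75 (percentile 24.9) and 2.09 (5.34), in neither Ey replicate, and was not reproducible.

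Su(H) is known to bind sequences of the form CGTGGGAA, CGTGAGAA, TGTGGGAA or TGTGAGAA, and these 8-letter words were searched on both strands. None occurred in any of the 15 regions, whereas 32.2% of all reproducible Su(H) peaks and 24% of all reproducible Ey peaks held at least 1. The absence says only that these letters are not in these windows. The authors searched a broader Su(H) consensus with mismatches allowed, and some sites they mutated in *slp1* and *slp2* enhancers hold none of these words. With the first letter dropped (GTGGGAA or GTGAGAA, words chosen after the search for the longer ones), a match was found in 3 regions, *CadN* regions 1 and 2 and *trn* region 2. Every longer word also contains a shorter one. The shorter words were in 2 of the 9 reproducible Su(H) peaks of these genes (22.2%, against 49.8% of all reproducible Su(H) peaks). They were in 2 of the 8 reproducible Ey peaks (25%, against 41.8%). Windows of the same length as *CadN* region 1 and region 2 held a shorter word in 60.7% and 52.6% of cases over the chromosome arms, so a match in peaks this long is common. The matches in *CadN* are shown because they are the only ones under its peaks. They are intronic, on the plus strand of dm6 (chr2L:17746122-17746182 and chr2L:17744078-17744138), with the word in capitals.
CadN region 1: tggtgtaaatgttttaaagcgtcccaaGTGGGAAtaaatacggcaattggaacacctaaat
CadN region 2: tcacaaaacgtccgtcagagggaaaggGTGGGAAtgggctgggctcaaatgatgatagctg
The first of these lay inside the reproducible Ey peak of region 1 but outside the narrower peaks of Ey replicate 2 and of Su(H), and the second lay inside the peaks of both factors.

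*CadN2*, the neighbouring paralogue on the same strand (2L 17786971 to 17875247), had no peak of either factor in any list. The gene spans 88.3 kb with 125 GATC sites, and its nearest reproducible peaks, 37118 bp away for Ey and 38592 bp for Su(H), were outside the gene. The pair therefore differed in all 6 lists, as did *Dscam1* and *Dscam2* from *Dscam3*. Its density of GATC sites was the lowest of the 9 genes, 1.42 per kb.

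*caps* helps a class of photoreceptor and its target neurons to meet in the same medulla layer. Over 51 kb (3L 13228692 to 13279642, plus strand) it had a peak of each factor, both reproducible and both found in all replicates, in an intron 24.7 kb from the transcript start and before the first coding base. The Ey scores were 6.57 (percentile 95.4) and 5.93 (96.9), and the Su(H) scores 4.01 (91.3) and 3.94 (92.5). Of the 9 genes, *caps* was the one at which all 4 replicates placed the highest peak above 90% of their lists, and replicates of a factor differed by less than the factors did. The peaks began at the same GATC site (13253394 in the reproducible lists). The Ey peak ran on to 13257048, 3655 bp in all, and the Su(H) peak stopped at 13255720 after 2327 bp, with the same edges in both replicates of each factor.

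The paired domain of Pax6 proteins binds a longer degenerate site, whose core (TCACGC followed, after any base, by T, any base and A) was absent from all 15 regions and present in 3.76% of all reproducible Ey peaks. The 6-letter word TCACGC, the first part of that core and chosen after the core had been searched, was under 3 of the 8 reproducible Ey peaks (37.5%, against 38.4% of all reproducible Ey peaks) and 5 of the 9 Su(H) peaks (55.6%, against 34.3%). Its reverse complement, GCGTGA, can overlap CGTGAGAA, but no match of the words overlapped another here. *caps* region 1 held it at 2 places, in the portion bound by both factors, and 56.1% of windows of that length over the arms held at least 1. These sites are shown because *caps* had the most uniform peaks of the 9 genes. They are intronic, at chr3L:13254016-13254075 (minus strand) and chr3L:13254838-13254897 (plus strand) of dm6, each read 5′ to 3′ on the strand named, with the word in capitals.
caps region 1, minus strand: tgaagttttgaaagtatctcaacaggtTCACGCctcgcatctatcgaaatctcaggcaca
caps region 1, plus strand: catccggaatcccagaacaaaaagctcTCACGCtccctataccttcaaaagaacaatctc

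*trn*, the closest relative of *caps*, differed from it in the order of the factors. The gene is short (3.81 kb, 3L 13114271 to 13118077, plus strand) but rich in GATC sites, at 6.04 per kb. Region 2 (13116935 to 13117439), 505 bp of coding sequence, was reproducible for Su(H), with scores of 3.83 (percentile 83.8) and 4.29 (97.4). In the Ey lists it was missing from replicate 1 and scored 3.99 (32.7) in replicate 2. Su(H) thus ranked above Ey in every replicate, the opposite of *caps*. Region 3 (13119004 to 13120957), downstream of the gene, was also reproducible for Su(H), at 2.93 (percentile 34) and 2.85 (42.8). A reproducible Ey peak (13119449 to 13120957, 4.94 in Ey replicate 1, percentile 40.7) overlapped region 3 but began 1372 bp from the gene, so that the label of *trn* as a gene with Su(H) alone depends on the limit of 1000 bp. Region 1 (13116089 to 13116607), also coding, was in Su(H) replicate 2 only (3.0, percentile 52). The shorter Su(H) word of region 2 is shown because it is the only one under the peaks of *trn*. It was 1 of the matches in 3 of the 15 regions, and 10.7% of windows of 505 bp over the arms held such a word. It lies in coding sequence on the plus strand of dm6 (chr3L:13116958-13117018), with the word in capitals.
trn region 2: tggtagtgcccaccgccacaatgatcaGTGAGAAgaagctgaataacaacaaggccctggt

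**Figure D4:**
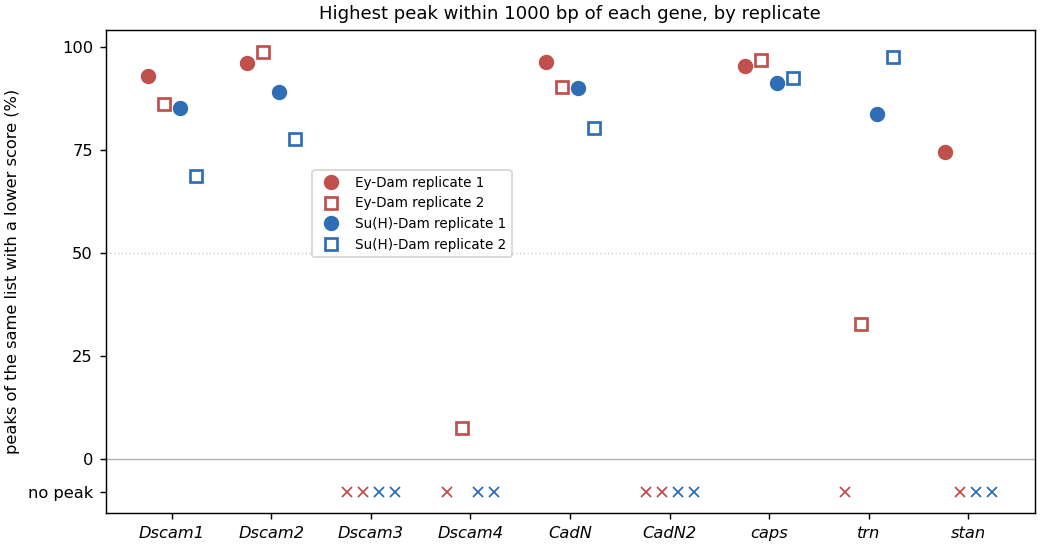
Highest peak within 1000 bp of each of the 9 genes (x axis) as the percentage of peaks of the same list with a lower score (y axis), for the Ey-Dam replicates (red) and the Su(H)-Dam replicates (blue). Crosses at the bottom mark replicates with no peak. *caps* lies between 91.3 and 96.9 in all 4 replicates, *trn* is at 83.8 and 97.4 for Su(H) and at 32.7 in a single Ey replicate, and *Dscam3* and *CadN2* have crosses only.

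*stan* had a peak of Ey only, and that peak came from a single sample at the stricter threshold. The gene (2R 10673345 to 10721138, 47.8 kb, plus strand) had an intronic Ey peak, 7.15 kb from the transcript start and before the first coding base (10680495 to 10683045), with a score of 5.72 (percentile 74.6) in Ey replicate 1. No peak passed an FDR of 0.01 there in Ey replicate 2. The peak is in the reproducible list with the top IDR score of 1000, which can be reached from the weaker peaks (FDR under 0.1) that were the input to that list. Without replicate 1, *stan* had 0 Ey peaks. No Su(H) list held a peak, and the nearest reproducible Su(H) peak was 102780 bp away.

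Most of the Ey peaks of these genes were intronic, and few peaks of either factor held a transcript start. Of the 8 reproducible Ey peaks 5 were wholly intronic (62.5%, against 25.5% of all Ey peaks), 2 touched an exon and 1, at *Dscam1*, held a transcript start (12.5%, against 32.1%). Of the 9 Su(H) peaks 4 were wholly intronic (44.4%, against 25.6%), 3 touched an exon, 1 held a start (11.1%, against 29.5%) and 1, downstream of *trn*, lay between genes. The median distance to the nearest transcript start of any gene was 4479 bp for Ey and 3967 bp for Su(H), against 1189 bp and 1225 bp over all peaks of each factor. Peaks of these genes had to lie within 1000 bp of a gene, which leaves little room for peaks between genes. That class held 27.5% of all Ey peaks and 27.7% of all Su(H) peaks, so the shares are not like for like. Long introns are a feature of genes of this length. The part of length and of the assignment rule in these shares was not tested.

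Ey and Su(H) peaks of these genes overlapped in 6 of 8 cases counted from Ey (75%, against 61% of all Ey peaks) and in 7 of 9 counted from Su(H) (77.8%, against 62.9%). These lists may share Dam controls, and the counts are given side by side with the general ones for that reason. At *Dscam1* region 1 and *Dscam2* region 1 the peaks of the factors had the same start and end. The peaks of *Dscam2* region 2, *CadN* region 2, *caps* and *trn* region 3 shared an edge and differed in breadth. In *CadN* region 1 the reproducible Su(H) peak lay inside the reproducible Ey peak with no shared edge, although Ey replicate 2 shared the left edge of Su(H). The overlap at *trn* is with the Ey peak outside the limit of 1000 bp, and is counted from Su(H) only.

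Among the 605 protein-coding genes with peaks in all 4 replicate lists, the gene whose 4 best percentiles were nearest to those of *Dscam1* was *Socs36E* (Euclidean distance 7.95 percentile points), a suppressor of cytokine signalling, followed by *ssp3* at 9.63. The nearest to *Dscam2* was *brat*, a regulator of neuroblast differentiation, at 5.34. *Drgx*, a homeobox gene, was nearest to *CadN* at 4.87 and second to *Dscam2* at 6.11, with *egr*, a tumour necrosis factor ligand, second to *CadN* at 5.36. *smal* and *Mes2* were nearest to *caps*, at 5.3 and 5.41. The likeness is measured over 4 values that share libraries and concerns peak rank alone.

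Genes whose products belong to the same families or work with these proteins were counted in the same way, to be read beside the shares of all genes (5.54% for Ey, 5.46% for Su(H), 87.1% with no peak in any list) and of long coding genes (23.1%, 21.1% and 60.5%). Of 13 other genes of the cadherin superfamily, 2 had a reproducible Ey peak, 1 a Su(H) peak and 10 no peak in any list. *Cad74A* was the gene with both, at percentiles of 98.1 and 88.3 in the Ey lists and 86.1 and 92.4 in the Su(H) lists. The other was *ds*, the large cadherin Dachsous, with Ey at 28 and 49.1 and no Su(H) peak. Of the 4 catenin-type linkers, *arm*, the fly beta-catenin, had an Ey peak (58.7 and 42.7) and the other 3 had no peak in any list. Of 7 partners of Flamingo, *pk* and *fz* had reproducible peaks of both factors, and 4 had none in any list. *pk*, encoding Prickle, stood at 93 and 62.7 in the Ey lists and 92.2 and 80.8 in the Su(H) lists, and *fz*, encoding the receptor Frizzled, carried 2 peaks of each factor. Of 6 partners of Dscam in signalling, 3 had an Ey peak and 2 a Su(H) peak. The adaptor gene *dock* had Ey at 96.3 and 56.2, and Su(H) at 87.4 and 49.1 without a reproducible Su(H) peak. *Abl*, encoding a tyrosine kinase, had a reproducible peak of each, although Su(H) was in replicate 2 only (59.1). *wnd*, encoding a kinase, had Su(H) alone (42.6 and 52), and its regulator *hiw* had a reproducible peak of Ey alone, with Ey in replicate 1 (35.9) and Su(H) in replicate 2 (22.1).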

How the data were processed

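Genomic DNA was cut with DpnI, ligated to adaptors, digested with DpnII and amplified before sequencing. Reads were aligned by the authors to dm6 (Bowtie2), who then computed log2 ratios over Dam alone on GATC fragments and called peaks with find_peaks, part of the damidseq pipeline. The deposited values are a score for each peak, in replicate lists at FDR 0.01 and in lists at an IDR threshold of 0.05 made from peaks at FDR 0.1. IDR scores are capped at 1000. Deposited lists of overlapping peaks were not used. The peak lists hold no read counts, so no counting interval was computed.

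All peaks began and ended at a GATC site of the reference, Release 6 (dm6). Genes came from Ensembl release 115, on 6 arms and without transposon insertions, and the printed sequences came from that reference. Overlap required at least 1 bp, and regions are unions of overlapping peaks. Scripts ran in Python 3.11.15 with numpy 2.4.6 and were tested on simulated intervals. The named genes were the 9 members, for each the nearest genes by percentile, and, from each adhesion list, those with the highest mean percentile among genes holding a reproducible peak. Members and lists were chosen with earlier results of these data known. The replicates were separate samples of about 100 brains. The alternatives were distances of 0 and 5000 bp, either replicate alone, and replicate 1 peaks that overlap a replicate 2 peak. Others were the higher-scored part of the reproducible peaks and an overlap of 50%. The IDR score alone did not set that part, since all 8 Ey peaks here scored 1000 and 6 of them were kept.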

Additional observations from a re-analysis of the deposited data

How the results depend on the processing

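The number of the 9 genes with an Ey peak was 5 in the reproducible list, 5 at a distance of 0 bp, 7 at 5000 bp (with *trn* and *Dscam3* added) and 4 when peaks of replicate 1 had to overlap a peak of replicate 2 (without *stan*). Taken from a replicate list, with the other left out, it was 5 to 6. The number with a Su(H) peak was 5 under each of these settings, and the number with both ran from 4 to 5. The Ey peaks numbered 8 in the reproducible list and 9 to 10 in the replicate lists, and the Su(H) peaks 9 and 11 to 12. The share of Ey peaks that overlapped a Su(H) peak ranged from 66.7% to 90%. That of Su(H) peaks that overlapped an Ey peak ranged from 57.1% to 77.8%. Both lowest values came from the higher-scored part of the reproducible peaks, which the IDR score alone did not set. When 50% of the shorter peak had to be shared, the shares stayed at 75% and 77.8%. Of 108 peak counts of single genes under these alternatives, 98 stayed within 1.5 times and 10 did not, 5 higher and 5 lower, among them *Dscam4*, *stan* and *trn* for Ey. The 98 include counts of 0 that stayed 0, as at *CadN2*, and changes from 2 to 3, as for Su(H) at *CadN*. The median of the highest Ey percentile, over the genes with an Ey peak in a replicate list, was 89.5, 88.2 to 95.4 with either replicate left out, and 82 at 5000 bp.

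No paired analysis was possible because the results come from lists of peaks and no test was made. Precision is limited by 2 replicates of each factor, by the spacing of GATC sites, which sets the edges of every peak, and by the lack of values outside peaks, so that binding below the threshold is not seen. Position within 1000 bp of a gene does not show that the gene is regulated from there.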

Other observations

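Further families of neuronal surface proteins were counted in the same way, and no count was tested against another. Of 15 genes of immunoglobulin adhesion proteins, 6 had a reproducible Ey peak, 2 a Su(H) peak and 7 no peak in any list. *Nrg*, the fly neuroglian, had both factors, at percentiles of 49.1 and 73.5 in the Ey lists and 66.1 and 44.6 in the Su(H) lists. *kirre*, used in myoblast fusion and in synaptic partner choice, ranked higher in the Ey lists (94.8 and 69.4) than in the Su(H) lists (31.4 and 27.2). *fred* had Ey and Su(H) in replicate 1 only (94.4 and 61), and *Lac* had Ey at 83.7 and 66.5 with Su(H) at 28.9 and 43.7. Of 18 other genes of leucine-rich repeat surface proteins, 4 had an Ey peak, 2 a Su(H) peak and 12 no peak in any list. *lbk* stood at 69.5 and 81.1 in the Ey lists and 75.9 and 87.7 in the Su(H) lists, and *kek5* carried 1 Ey peak and 2 Su(H) peaks. *Con*, encoding the homophilic protein Connectin, had Ey at 25.4 and 90.3 and no Su(H) peak. Over all 63 listed genes outside the 9, 18 had a reproducible Ey peak, 9 a Su(H) peak, 8 both and 38 no peak in any list. These are 28.6%, 14.3%, 12.7% and 60.3%, beside 5.54%, 5.46%, 3.33% and 87.1% of all annotated genes. Of the 26 that are at least 30 kb long, 46.2% had an Ey peak, 23.1% a Su(H) peak, 23.1% both and 38.5% no peak in any list, beside 23.1%, 21.1%, 17.0% and 60.5% of the long coding genes. The lists were chosen with earlier results known, and no test was made.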
